A study of Homo sapiens with 104 samples.

Results

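SPATC1L, known earlier as C21orf56, was followed across 26 human lymphoblastoid (B-cell derived) cell lines before and after exposure to the methylating agent MNNG. The gene was picked by name, as a candidate marker of a line's sensitivity to alkylating agents, with earlier results of these data known. It had 1 probe set with that single symbol, 223360_at, and is 1 of 13842 genes tested and of 19775 genes with such a probe set. The lines comprised 24 that carry a number as name, here called the panel, the long-established line TK6, and MT1, a mismatch-repair-deficient line that arose from TK6 by selection for alkylation resistance. No genotype, transgene or other agent is given in the labels of any line. All were growing in mid log phase, and RNA was measured on duplicate arrays without treatment and after MNNG, in 52 groups of 2. The sources used here give neither dose nor time of exposure, nor how many cells of a line MNNG killed. The labels do not state whether duplicates were separate cultures, so the p-values may reflect technical spread only, and the number of arrays limits the precision.

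SPATC1L encodes a relative of speriolin, the sperm centrosome protein made from SPATC1. Its role in B cells is little known. MNNG leaves methylated bases in DNA, of which O-methylated guanine is the most toxic. MGMT removes that methyl group directly, and where it is missing, mismatch repair acts on the lesion and sets off the damage response, in which p53 induces genes such as the cell-cycle inhibitor CDKN1A and the ubiquitin ligase MDM2.

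The reference sequence next to the start of SPATC1L is shown because the level of the gene differed between lines. It is the 250 bases before the RefSeq start, on the minus strand, at chr21:46184460-46184709 of GRCh38.p14. Alternate copies of a tandem repeat are in capitals.
SPATC1L upstream: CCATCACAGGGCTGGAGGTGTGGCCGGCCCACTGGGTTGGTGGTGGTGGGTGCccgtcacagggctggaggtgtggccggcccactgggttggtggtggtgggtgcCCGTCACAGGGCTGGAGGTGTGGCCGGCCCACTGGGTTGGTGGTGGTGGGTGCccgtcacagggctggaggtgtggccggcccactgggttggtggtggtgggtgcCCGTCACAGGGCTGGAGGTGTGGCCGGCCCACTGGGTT
The window held 4 copies of a 53-base unit and 38 bases of another. Of the 197 positions with a base 53 places on, 1 differed. Among 35116 RefSeq promoter windows of the same length, 51 (0.145%) matched themselves at 90% or more of positions at any spacing of 20 to 99 bases. The GC content was 71.2%, against a median of 58% over all the windows, and 9 CpG pairs lay in it. This is the reference sequence and was not read from any of the lines.

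Of the 52 MNNG arrays, 22 were left out because the probe sets for a spiked-in cre transcript differed by -5.19 to -6.45 log2 units, against 0.082 to 0.83 in the 82 arrays kept. They were 21 arrays of the panel and 1 of MT1. This left 19 numbered lines with at least 1 MNNG array, 8 with both and 11 with 1. In 79 of the 82 arrays the closest array by correlation was of the same line. In line 14 the duplicates correlated at 0.966 untreated and 0.968 with MNNG. Untreated replicate 1 was closer to MNNG replicate 2 (0.991) and untreated replicate 2 to MNNG replicate 1 (0.982), so this line may not match its labels. The panel change is therefore also given without each line in turn. Untreated duplicates were also less alike than the 2 conditions of replicate 1 in lines such as 2 (0.977 against 0.989), 13 (0.978 against 0.991) and 23 (0.970 against 0.987). In others, such as lines 9 (0.996 against 0.987) and 10 (0.995 against 0.989), they were more alike. The MNNG duplicates of line 18 correlated at 0.965, the lowest of the duplicate pairs kept. The 9 B-cell markers had mean untreated levels from 7.78 (the kinase BLK) to 12.1 (MS4A1, the CD20 antigen). Markers of T and NK cells lay at 5.31 to 6.08 and those of spermatids at 5.44 to 6.27 (ACR), all lower than the B-cell markers. The myeloid and the fibroblast and epithelial lists each held a gene above 7, LYZ (7.21) and KRT8 (7.50). Levels are log2 of the intensity plus 16 after quantile normalization, and the scale ends at 5. TK6 and MT1 held little of BLK (5.32 and 5.37) and of the complement receptor CR2 (5.31 and 5.22), and MT1 had little MS4A1 (6.41). The keratin gene KRT8 was at 9.84 and 9.63 in them, against at most 7.82 in the panel, and the NK-cell gene NKG7 was at 9.07 in TK6, against at most 7.04; their part in the results was not tested.

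SPATC1L was a gene of middling intensity that differed between untreated lines. Its mean level exceeded that of 61.0% of the genes with a probe set. Over the 48 untreated arrays of the panel, the deposited intensity was 37.1 at the lowest, 89.0 at the median and 180.2 at the highest. Arrays differ in scale before normalization. The untreated duplicates of line 14, the line that may not match its labels, read 123 and 47.1, but their normalised levels were 6.90 and 6.86. Its MNNG arrays read 43.4 and 100.6, with levels of 6.82 and 6.91. The level per line was 6.71 ± 0.51 (SD over lines, n = 24), from 5.54 in line 4 to 7.50 in line 22, a 3.90-fold range of intensity plus 16. The SD between duplicates was 0.26. Lines differed by limma's F test (F = 8.29, adjusted p = 9.99e-07). This test called 64.3% of all genes, and SPATC1L ranked 3535 of 13842 by F, so a difference between lines was common to most genes.

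At the low end stood line 4, with intensities of 39.8 and 37.1 (level 5.54), and line 11, with 40.9 and 49.6 (5.69). Lines 10 (56.8 and 61.9, level 6.00) and 9 (78.0 and 65.8, level 6.23) followed. The duplicates of lines 4, 11 and 10 lay apart from those of the next line up. From line 9 upward every line overlapped its neighbour, so 20 of the 23 steps in the order were within the spread of duplicates. Lines 6, 18, 21, 16 and 17 lay at 6.27 to 6.58. The next 10 lines, 20, 7, 19, 15, 2, 14, 3, 5, 24 and 23, lay at 6.75 to 7.00 and have no clear order. At the top were line 1 (7.16), line 13 (7.19), line 12 (146 and 157, level 7.36), line 8 (115 and 160, level 7.48) and line 22 (159 and 180.2, level 7.50). Of the 276 pairs of lines, 180 (65.2%) had duplicates that did not overlap.

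**Figure D1:**
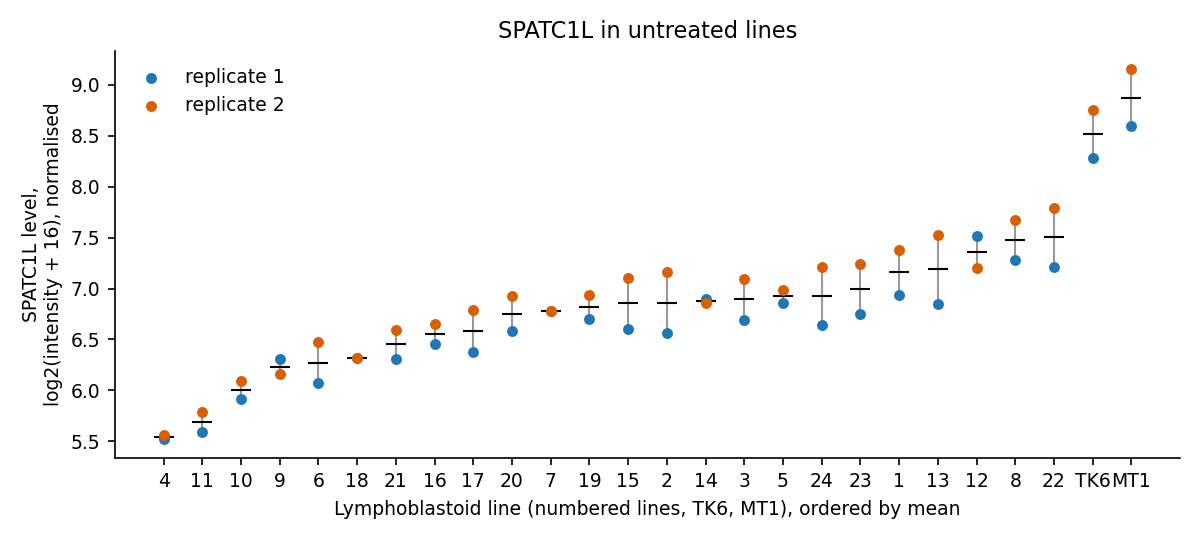
SPATC1L level, log2 of intensity plus 16 after quantile normalization, in untreated arrays of 26 lines ordered by mean. Points are arrays by replicate number and bars are means; TK6 and MT1 lie above all 24 numbered lines, and replicate 2 lies above replicate 1 in 20 of those.

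TK6 and MT1 had the highest levels. The untreated intensities were 290 and 394 in TK6 (level 8.52) and 378 and 511.9 in MT1 (level 8.87). All 4 arrays exceeded every array of the panel. TK6 lay 1.81 above the panel mean, 3.50-fold in intensity plus 16, and MT1 lay 2.16 above it, 4.48-fold. That is 3.56 and 4.25 times the SD over lines. TK6 lay 1.02 above line 22, the nearest numbered line. With TK6 or MT1 as 1 line among 25, the two-sided exact permutation p was 0.04 for each, the smallest that 25 lines can give, in a comparison chosen after the values were seen. Both lines lay above all 24 lines in 9.87% of genes and by at least 1 log2 unit in 0.303% (42 genes), SPATC1L among them. MT1 was derived from TK6, so they are not independent. Untreated MT1 minus TK6 was 0.36 ± 0.23 (SE; 95% interval -0.12 to 0.83) and did not pass (adjusted p = 0.316, limma), where 25.2% of genes were called.

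MNNG was followed by a fall of SPATC1L in TK6. The intensities went from 290 and 394 in untreated TK6 to 110 and 85.6 after MNNG. The conditions did not overlap, and the mean intensity was 3.49-fold lower. On the normalised scale the levels went from 8.29 and 8.75 to 6.91 and 6.80, a change of -1.67 ± 0.23 (SE; 95% interval -2.14 to -1.19; adjusted p = 1.10e-07, limma). Of all genes, 41.2% were called in TK6 and 19.5% called down, and SPATC1L had the 96th lowest change of 13842. After MNNG, TK6 lay 0.14 above the untreated panel mean, inside the range of the numbered lines. The untreated TK6 arrays differed by 0.47 and the treated by 0.11. Within replicate 1 the change was -1.38 and within replicate 2 it was -1.95.

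MT1 kept 1 MNNG array. Its intensity was 274, against 378 and 511.9 untreated, so the treated array lay below both untreated arrays. The change was -0.77 ± 0.28 (SE; 95% interval -1.35 to -0.20) and did not pass after adjustment (unadjusted p = 0.00985, adjusted p = 0.137, limma), where 3.56% of genes were called. MT1 replicate 1 read 33.0 on the MNNG array that was left out. With the left-out arrays of all lines returned and normalised together, the MT1 change was -1.91 (adjusted p = 0.044, limma). TK6 minus MT1 was -0.89 ± 0.37 (95% interval -1.64 to -0.15), which did not pass over all genes (unadjusted p = 0.0200, adjusted p = 0.0734, limma). This difference called 24.7% of genes, and with all arrays it was 0.31. A larger fall in TK6 than in MT1 was therefore not shown for this gene.

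In the same arrays, most genes listed for the p53 response rose more in TK6 than in MT1, which kept 1 MNNG array. The list was chosen with earlier results of these data known, so this is a description and not an independent test. Of 34 damage targets tested, 31 rose in TK6 and 0 fell, with a median change of 1.63 against -0.029 over all genes, where 21.6% were called up. In MT1, 2 rose, 2 fell and 30 did not pass, where 2.36% of all genes were called up and 1.21% down. The difference of the changes was called higher in TK6 for 31 of them, against 12.2% of all genes, and for 28 or 29 of them on the other scalings. CDKN1A changed by 2.95 ± 0.082 in TK6 and by 0.087 ± 0.10 in MT1, and MDM2 by 2.95 ± 0.15 and 0.50 ± 0.18. SPATC1L is on no such list and went the other way in TK6.

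**Figure D2:**
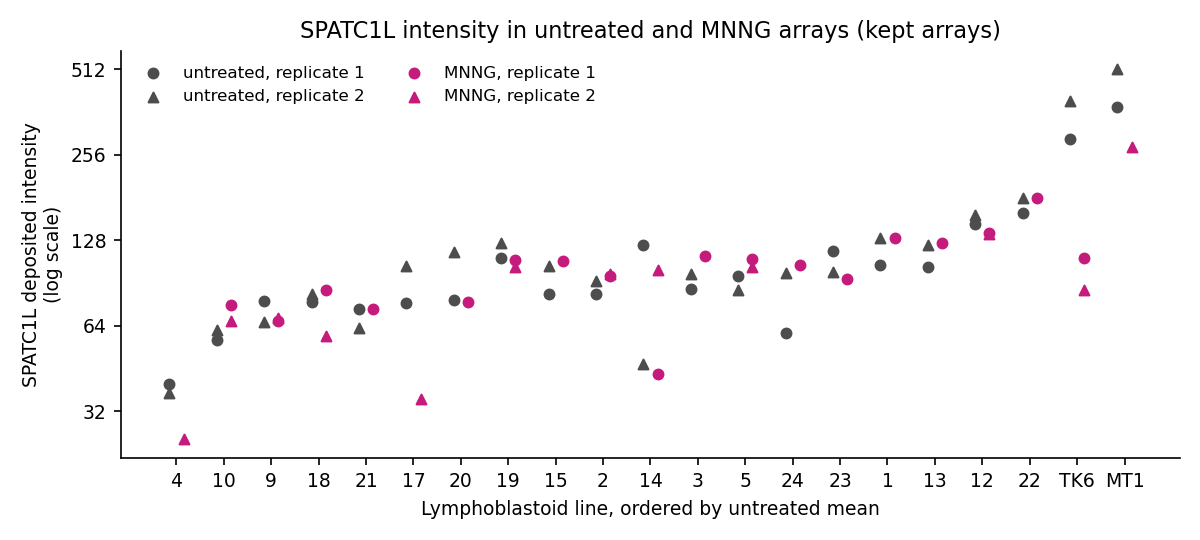
Deposited intensity of SPATC1L (log scale) in untreated and MNNG arrays of the 19 numbered lines, TK6 and MT1 that kept an MNNG array. Symbols show the replicate number. In TK6 both MNNG arrays (110 and 85.6) lie far below both untreated arrays (290 and 394). None of the 8 numbered lines with both MNNG arrays kept shows such a fall in both replicates. The 1 MNNG array kept for line 17 read 35.2, against 76.8 and 103.7 untreated. Its normalised level was 6.36, against 6.38 and 6.78.

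In the panel SPATC1L hardly moved. Over the 27 MNNG arrays kept, the intensity was 25.5 at the lowest, 97.3 at the median and 180.1 at the highest, close to the untreated arrays. The level was 6.75 ± 0.48 (SD) untreated and 6.64 ± 0.48 with MNNG in the same 19 lines. The mean change was -0.11 ± 0.030 (SE; 95% interval -0.17 to -0.049), below 0 in 16 lines and above 0 in 3, and limma called it (adjusted p = 0.00452). In this comparison 42.6% of genes were called, 13.8% down and 28.7% up. Without any 1 line, line 14 included, it lay between -0.12 and -0.098 and was still called.

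The size and sign of this small change differed with the replicate number used, although the numbers do not pair the arrays. Untreated replicate 2 exceeded untreated replicate 1 in 20 of 24 lines, by 0.27 on average, as it did for 3.2% of genes, and in TK6 (by 0.47) and MT1 (by 0.56) too. Of the 27 MNNG arrays kept in the panel, 17 were of replicate 1 and 10 of replicate 2, while the untreated means hold both equally. Whether the MNNG arrays hold the same shift was not tested. Within replicate 1 the change was 0.023 (SD 0.19, 17 lines, 8 up and 9 down, adjusted p = 0.758). Within replicate 2 it was -0.12 (SD 0.20, 10 lines, 3 up and 7 down, adjusted p = 0.323). On values as deposited it was -0.039 (adjusted p = 0.670), with median-centring -0.19 (adjusted p = 0.00159) and with all arrays -0.23 (adjusted p = 0.0135, all by limma). The mean was thus below 0 in each of these settings except within replicate 1, and a fall of the size seen in TK6 lies outside the interval for the panel mean.

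Line by line, the change ranged from -0.34 in line 23 through a median of -0.10 to 0.079 in line 10 (SD 0.11). Of the 19 lines, 0 were called on their own. The smallest unadjusted p, in line 23, was 0.236 (adjusted p = 0.665, limma), so 0 lines had an unadjusted p under 0.05. With replicate 1 or 2 left out of 1 line at a time, limma called 0 of 10 and 0 of 17 lines (0 at an unadjusted p under 0.05). Over the 19 lines together 3.19% of the tests of a gene in a line were called, from 0.0289% in line 13 to 12.8% in line 20. The F test of a difference in response between the numbered lines gave F = 0.18 (adjusted p = 1.00, limma), where 6.75% of genes were called, and SPATC1L ranked 13821 of 13842. The error of this F test and of the single-line tests held the shift between replicate numbers, so they could miss small differences. The SD between untreated duplicates was 0.26, and 0.18 with the mean shift removed. With a replicate block the F test still did not pass (adjusted p = 0.968, limma) and 0 lines were called. Untreated and treated levels correlated at 0.973 over the 19 lines, a description in which both come from the same lines. The order was not the same throughout, as line 23 went from 7.00 to 6.65 and so below 6 lines that it had exceeded. Line 4, the lowest before treatment, stayed lowest, with an intensity of 25.5.

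The change in TK6 differed from that of the numbered lines. TK6 minus the mean change of the 19 lines was -1.55 ± 0.24 (SE; 95% interval -2.04 to -1.07; adjusted p = 9.47e-07, limma), where 39.3% of genes were called and 20.5% called down. The error comes from arrays, not lines. With TK6 as 1 line among 20, the two-sided exact permutation p was 0.05, the smallest possible. The TK6 change lay below that of all 19 lines, but the lines did not have equal room to fall. The scale ends at 5, and TK6 started at 8.52. A change of -1.67, as in TK6, would have taken lines 4, 10, 9, 18, 21 and 17 (5.54 to 6.58 untreated) below that end. For those lines the ranking and the permutation test cannot show a smaller response. This comparison was chosen after the values were seen. TK6 also held little MGMT (5.20). Of the numbered lines compared, line 4 (5.12, 1 MNNG array kept) was as low, and the next, line 9, was at 5.90. The median change of the listed damage targets was 1.63 in TK6 and 0.22 in the panel. The part of MGMT and of the wider response in this difference was not tested.

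**Figure D3:**
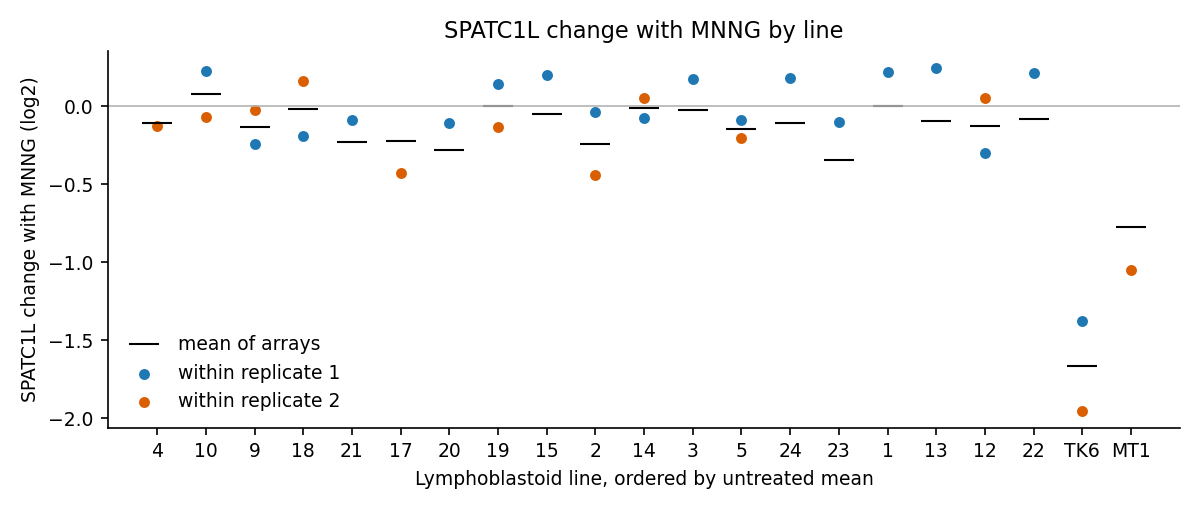
Change of SPATC1L with MNNG (log2) for each line that kept an MNNG array. Bars are the change of array means and points the change within each replicate number; the numbered lines lie between -0.34 and 0.079, TK6 at -1.67 and MT1 at -0.77.

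The study's interest in alkylation makes MGMT the first gene to set beside SPATC1L. SPATC1L was chosen with earlier results of these data known, so the relations across lines are descriptions and not independent tests. Across the 24 numbered lines the untreated levels of the 2 genes rose together (r = 0.682, permutation p = 0.00039, two-sided, adjusted over 5 relations 0.00195). Spearman's rho was 0.573 (permutation p = 0.00375, adjusted 0.0187). Line 4, with the least SPATC1L, had MGMT at 5.12, next to the lowest of the panel, and line 11 had it at 5.84. Without the 2 lines farthest from the median SPATC1L level r was 0.493 (permutation p = 0.0198) and rho 0.453. In the 17 lines with MGMT at 7 or above, a limit set with the levels in view, r was 0.026 (permutation p = 0.920). This narrows the MGMT range, which by itself lowers r. TK6 and MT1, which were not in this test, departed from it. Their MGMT levels were 5.20 and 5.27, near the bottom of the scale, while their SPATC1L was the highest of all lines.

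MUTYH, the adenine glycosylase, tended the other way in the panel but did not pass (r = -0.399, permutation p = 0.0519, adjusted 0.0648). Its rho was -0.355 (permutation p = 0.0876, adjusted 0.198), and r was -0.349 without the 2 lines farthest from the median SPATC1L level. With values as deposited r was -0.619 (adjusted p = 0.0065), and median-centred arrays gave 0.093. Without line 1, 10 or 18 it passed (-0.473, -0.431 and -0.463). TK6 had 8.77 of MUTYH, above MT1 by 0.84 (adjusted p = 4.23e-07, limma).

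Lines with less SPATC1L before treatment tended to have larger rises of damage genes, a relation whose calls depended on line 4. Gene and list were chosen with earlier results of these data known, so the p-values here are no independent test. For the mean of the 34 damage targets r was -0.630 over 19 lines (permutation p = 0.0075, adjusted 0.0187), while rho was -0.272 (permutation p = 0.260, adjusted 0.325). For MDM2 r was -0.563 (permutation p = 0.0192, adjusted 0.0321) and rho -0.370 (permutation p = 0.119, adjusted 0.198). For CDKN1A r was -0.383 (permutation p = 0.105, adjusted 0.105) and rho -0.10 (permutation p = 0.684, adjusted 0.684). In line 4 the damage targets rose by 1.00 and MDM2 by 1.93, the most in the panel. Without line 4 alone r was -0.269 for the damage targets (adjusted p = 0.462), -0.123 for MDM2 (adjusted p = 0.779) and -0.031 for CDKN1A. Without lines 4 and 10, the 2 farthest from the median SPATC1L level, r was -0.480 (permutation p = 0.0505), -0.399 and -0.171. In the same order rho was -0.358, -0.495 and -0.066. The drop of r was thus larger without line 4 alone than without both lines. The first 2 calls were lost without line 4. Both also missed the threshold without line 9 (-0.599 and -0.554), as MDM2 did without line 22 (-0.540), while CDKN1A passed without line 1 (-0.511) or 10 (-0.507). Line 10, the third lowest in SPATC1L, had changes of -0.0011 for the damage targets and 0.022 for MDM2, with MGMT at 7.56. Level and change share untreated arrays. Line 4 is also low in MGMT, as are lines 9 (5.90), 18 (6.25), 19 (6.41) and 20 (6.77). In lines 9, 18, 19 and 20 the damage targets rose by 0.47, 0.33, 0.27 and 0.086. They rose by 0.32 in line 1, with MGMT at 7.53. The part of MGMT in the relation was not tested.

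**Figure D4:**
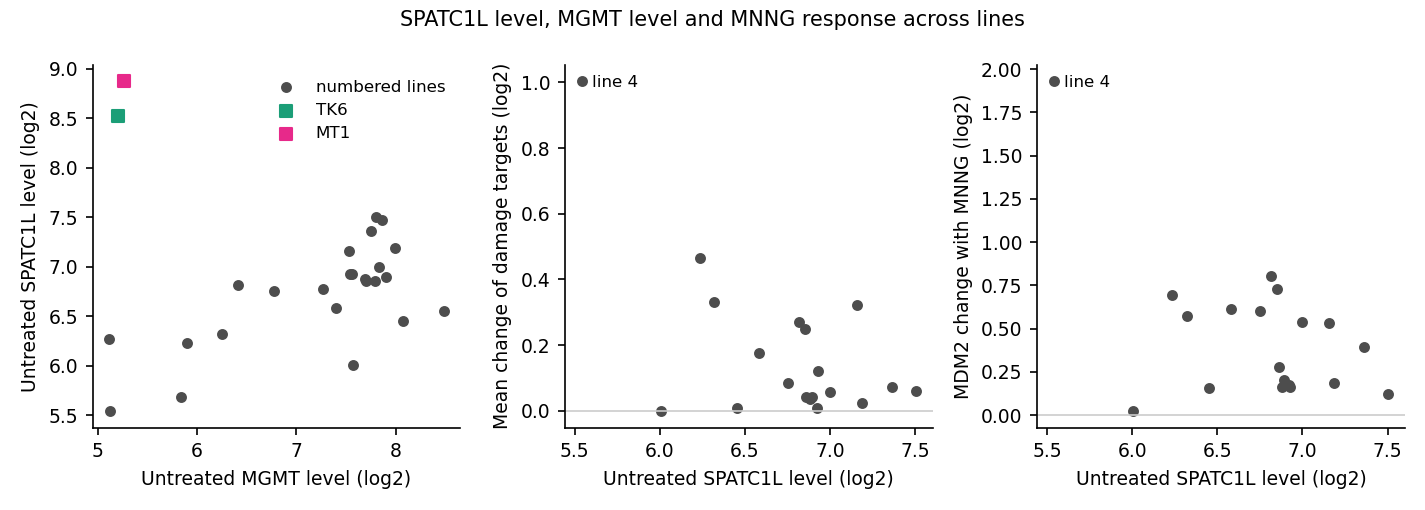
Untreated SPATC1L level against untreated MGMT level (left; 24 numbered lines, TK6 and MT1) and, for 19 lines, mean change of 34 damage targets (middle) and change of MDM2 (right) against untreated SPATC1L level, all in log2 units. TK6 and MT1 have MGMT of 5.20 and 5.27 with the highest SPATC1L, and line 4 stands alone at the left of the other plots.

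The genes beside SPATC1L on chromosome 21 did not share its pattern. Of a list of 14 neighbours, 12 were tested. LSS, the lanosterol synthase of sterol synthesis, is the next protein-coding gene on one side and FTCD, an enzyme of histidine breakdown, on the other. Over the 24 lines their untreated levels correlated with SPATC1L at 0.134 for LSS and 0.160 for FTCD, and the 12 ranged from -0.426 (the centrosome protein PCNT) to 0.467 (COL18A1). In untreated TK6, LSS was at 9.41, within the range of the panel, and in MT1 at 10.1. Both TK6 and MT1 lay above all 24 lines for 1 of the 12, C21orf58 (6.77 and 6.62, against at most 6.61). LSS was higher in MT1 than in TK6 by 0.72 ± 0.14 (adjusted p = 8.17e-05, limma), a call that ended with median-centring (0.68).

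**Figure D5:**
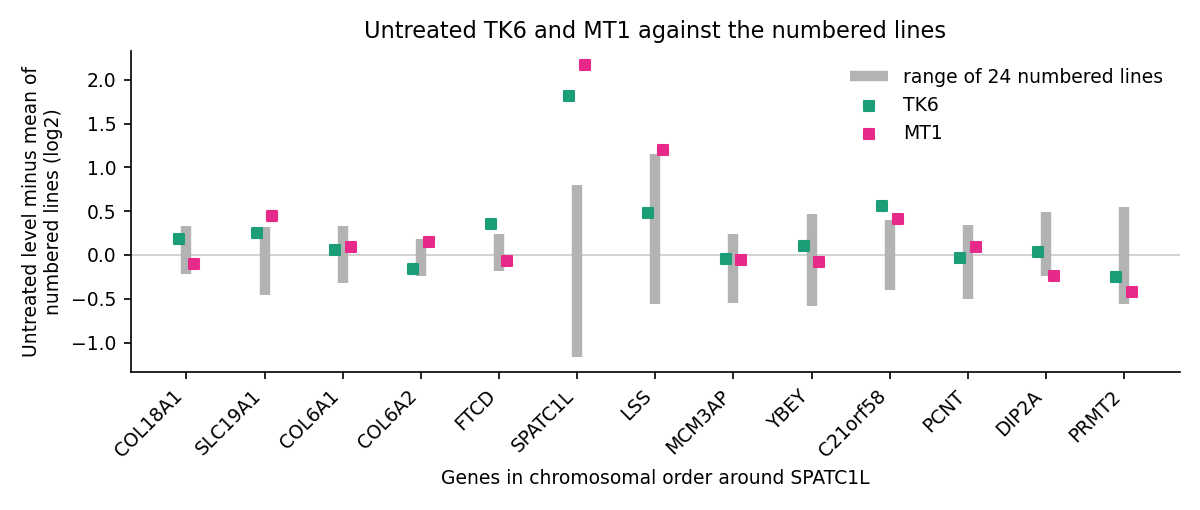
Untreated level minus the mean of the 24 numbered lines (log2) for SPATC1L and the tested genes around it, in chromosomal order. Grey bars span the numbered lines; only for SPATC1L do TK6 (1.81) and MT1 (2.16) lie more than 1 log2 unit above the top of the bar.

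With MNNG, 3 of the 12 neighbours rose in TK6, 3 fell and 6 did not pass, a share close to the 41.2% of all genes called there. PCNT (0.68 ± 0.17), MCM3AP (0.66 ± 0.18), which encodes a factor of mRNA export, and DIP2A (0.66 ± 0.13) rose. The folate carrier SLC19A1 (-0.50 ± 0.12), LSS (-0.39 ± 0.14) and FTCD (-0.38 ± 0.13) fell. On values as deposited 2 were called up and 0 down, and with median-centring 1 and 3, so single calls depend on the scaling, while these genes kept their direction. In the panel, where 42.6% of all genes were called, 4 were called up and 1, LSS, down (-0.28 ± 0.039, below 0 in 18 of 19 lines), and 1 up and 1 down with median-centring. In MT1, where 3.56% of all genes were called, 0 of the 12 were called by limma. The median change of the list in TK6 was -0.14, against -0.029 for all genes, and the lowest, -0.50 in SLC19A1, compares with -1.67 in SPATC1L.

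Of 12 tested genes on the repair list, drawn up for alkylated bases but also holding the adenine glycosylase MUTYH, 2 rose and 3 fell in TK6. The other 7 did not pass, so the share called was again close to the 41.2% of all genes. PARP1, which marks strand breaks, fell by 0.54 ± 0.10, MUTYH by 0.37 ± 0.12 and the mismatch repair gene MSH6 by 0.22 ± 0.077. The exonuclease EXO1 (0.66 ± 0.096) and the polymerase POLB (0.20 ± 0.078) rose. Of these calls, those of POLB and MSH6 ended on both other scalings and that of MUTYH on values as deposited, with directions kept. MGMT did not pass in TK6 (-0.040 ± 0.17). In the panel 8 were called up and 2 down, where 28.7% of all genes were called up and 13.8% down, but 2 up and 3 down with median-centring. Of the 12, MGMT had the highest correlation with SPATC1L across untreated lines, followed by the glycosylase MPG (0.553). None of the 12 had both TK6 and MT1 above all numbered lines, as 9.87% of all genes did.

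Genes whose untreated pattern was most like that of SPATC1L were looked for among 4638 genes with a range of at least 1 log2 unit over the 24 lines, as a description with no test. The highest correlations were those of BCRP3 (0.746), the glycosyltransferase gene GALNT18 (0.732), the lymphocyte adaptor HSH2D (0.726), the helicase gene HELZ2 (0.720), the kinase LCK (0.697) and the survival gene BCL2 (0.695). BCRP3 is a pseudogene with near-identical copies, so its signal is uncertain. The lowest were LZTFL1 (-0.754), TTC28 (-0.747), the phosphatase CDC14B (-0.712) and the interferon-induced chemokine CXCL9 (-0.707). The median of all was -0.023. In replicate 1 arrays 7 of these 10 were again in the list, in replicate 2 arrays 4, and over the MNNG arrays 0, although the signs were kept (0.263 to 0.594 for the first 6 and -0.494 to -0.641 for the other 4). SPATC1L itself correlated at 0.892 between the replicates. In TK6 and MT1, which were not used to find these genes, the picture was mixed. LCK was at 5.30 and 5.29 there, against 9.25 to 10.6 in the panel, and HSH2D at 6.44 and 5.94, below the 7.04 to 8.06 of the panel, unlike SPATC1L. GALNT18 (5.81 and 5.82) was low in the panel range of 5.72 to 7.44, BCRP3 (7.17 and 6.57) and HELZ2 (7.14 and 6.80) lay inside the panel range, and BCL2 was at 8.20 and 8.72, against 8.45 to 9.56. Of the inverse genes, TTC28 (5.38 and 5.57) and, in TK6, CXCL9 (5.45) were near the low end of the panel, at 5.41 and 5.27. LZTFL1 (7.79 in TK6) and CDC14B (6.88 in MT1) exceeded all numbered lines there. SPATC1, the paralogue on another chromosome, was near the bottom of the scale in every untreated line (5.41 to 5.68) and was left out as dim.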

How the data were processed

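The authors deposited 1 PLIER intensity per probe set and array on a linear scale, with a floor near 16, per the submitters' processing notes and the values. PLIER's version, probe model and scaling were not given in the sources used here. Values were transformed as log2 (intensity + 16), quantile normalised over the arrays used, and reduced to 1 probe set per gene (highest mean). The lowest 30% of genes were left out. Names came from the platform annotation: 41097 probe sets had 1 symbol, 1801 several and 11777 none. SPATC1L and the lists were chosen with earlier results of these data known.

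Tests used limma 3.58.1 in R 4.3.3 with a mean-dependent prior, and Benjamini-Hochberg adjustment over 13842 genes, called below 0.05. In the panel, duplicates were averaged with the line as a block. TK6, MT1 and single lines were contrasts among group means. F tests used single arrays. A group left with 1 array took its spread from the rest. Correlations used 100000 permutations, two-sided, adjusted over 5 relations. MNNG arrays with AFFX-r2-P1-cre-5_at over 2 log2 units below AFFX-CreX-5_at were left out. Named genes were SPATC1L, the 6 highest and 4 lowest correlations with it, MGMT, MUTYH, CDKN1A, MDM2, SPATC1, and tested neighbours and repair genes. Of 14 neighbours, 15 repair genes and 39 damage targets, 14, 12 and 36 matched a probe set. B-cell (9 of 10 matched), T and NK cell (7 of 7), myeloid (5 of 6), fibroblast and epithelial (7 of 7) and spermatid (7 of 7) markers were looked up. Mean marker levels per untreated line were 7.65 to 10.2, 5.54 to 6.13, 5.63 to 6.18, 5.87 to 6.50 and 5.51 to 5.71. Promoter sequence and gene order came from RefSeq (GRCh38.p14). The tests were checked on simulated data. Figures used Python 3.11.15 and matplotlib 3.10.9.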

Additional observations from a re-analysis of the deposited data

Results flagged for a closer look

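The change of SPATC1L in TK6 differed from the mean change of the 19 numbered lines by -1.55 log2 units in a test of the difference itself (limma, adjusted p = 9.47e-07). Both TK6 replicate numbers showed the fall (-1.38 and -1.95), and the difference was -1.26 to -1.84 under the 12 alternatives run. Untreated TK6 lay 1.81 above the panel mean, and the scale ends at 5, so the numbered lines had less room to fall. TK6 held little MGMT (5.20), and of the 7 numbered lines with MGMT below 7, lines 6 and 11 had no MNNG array in the comparison. The part of MGMT was not tested.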

How the results depend on the processing

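The fall of SPATC1L in TK6 (-1.95 to -1.34 over 13 alternatives), the difference between untreated lines, the absence of a call for differences in response and for MT1 minus TK6 untreated, and the relation to MGMT (r = 0.542 to 0.740 over 34) kept direction and side of the threshold. The panel change was -0.23 with all arrays (adjusted p = 0.0135) and -0.19 with median-centring (adjusted p = 0.00159), both called, and -0.039 on values as deposited, -0.0098 with a replicate block (pairs of the same line and number, adjusted p = 0.887), -0.11 without the line block (adjusted p = 0.710), and -0.12 to 0.023 when replicate 1 or 2 was left out. The replicate numbers do not pair the arrays: in 9 lines with both pairs, duplicate differences correlated at -0.623 to 0.137, over 0.1 in 2. With the block 111 genes were called for response and 113 in MT1; it moved no other SPATC1L call. With all arrays the MT1 change was -1.91 and TK6 minus MT1 0.31, 1 line was called on its own (also 1 on values as deposited), and r was -0.166 for damage targets and 0.068 for CDKN1A. On values as deposited r was -0.431 for damage targets, -0.445 for MDM2 and -0.619 for MUTYH; with median-centring it was -0.526 for CDKN1A and 0.093 for MUTYH. Without replicate 1 or 2, r was -0.774 to -0.168 for damage targets, -0.604 to -0.094 for MDM2, -0.727 to -0.039 for CDKN1A and -0.570 to -0.104 for MUTYH. Leaving out single lines gave -0.767 to -0.269, -0.736 to -0.123, -0.511 to -0.031 and -0.473 to -0.317. With level and change from different replicates, r was -0.488 (10 lines) and -0.084 (17 lines) for MDM2, and -0.658 (10 lines, permutation p = 0.0475) and -0.303 (17 lines) for damage targets. The genes most alike numbered 4 of 10 in replicate 2 and 0 in MNNG arrays. Causes were not tested.

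Counts of all genes called moved too. The panel count of 5892 was 9685 with all arrays, 3291 with median-centring (950 up and 2341 down, against 3978 and 1914; 4100 and 961 on values as deposited), 1188 without replicate 1 and 2097 without the line block. The response count of 935 was 264, 54 and 372 with all arrays, values as deposited and median-centring. In the same order TK6 went from 5697 to 464 and 3623, MT1 from 493 to 14, 99 and 67, MT1 minus TK6 from 3494 to 178, 1591 and 2057, TK6 minus MT1 from 3415 to 126, 1294 and 1682, and TK6 minus the panel from 5437 to 548 and 3129. Untreated lines went from 8894 to 5852 on values as deposited. With the TK6 and MT1 arrays alone, limma called 0 genes in MT1 (1623 at an unadjusted p under 0.05), 2225 for MT1 minus TK6 and 1915 for TK6 minus MT1. On values as deposited 92 up and 7 down were called in MT1, 15 and 52 with median-centring, against 326 and 167; for TK6 minus MT1 1152 up and 530 down with median-centring, against 1682 and 1733. The median change of all genes in MT1 was 0.033 on quantile, 0.31 on deposited and -0.13 on centred values, and SPATC1L lay -0.81, -0.97 and -0.97 from it. Leaving a replicate out of all lines left no residual degrees of freedom for the tests of untreated lines and response, and MT1 had no MNNG array without replicate 2.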
